A study of Homo sapiens with 4 samples.

Results

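The MAP kinase cascade genes are examined here through their cassette exons, that is, exons that are either joined to both neighbouring exons or skipped. Members were taken by gene symbol: all MAPK, MAP2K, MAP3K and MAP4K genes with events in the authors' deposited table except MAP3K7, plus the genes whose symbols begin with MAPK followed by a digit or by A, such as MAPK8IP3 and MAPKAP1. MAPKBP1 does not meet this pattern and was counted with the other pathway genes. This gave 101 events on 94 exons in 33 genes, out of 31408 events on 27483 exons in 9172 genes. Each event is 1 exon with 1 pair of flanking exons, so an exon can have several events.

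The libraries were made from HEK293T, a human embryonic kidney cell line. Cells were transfected with PX459, a Cas9 plasmid, and with pgRGFP, which carried guides for sites on both sides of RBFOX2. The groups were 2 clones of genotype WT and 2 clones of genotype RBFOX2 KO. Each library came from 1 clone that grew from a single sorted cell and was genotyped by PCR, so all 4 clones shared the transfection and the cloning, and each genotype rests on 2 clones. RBFOX2 is a splicing regulator that binds GCATG in RNA. The study paired this RNA-seq with crosslinking maps of RBFOX2 to find exons it regulates.

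MAP kinase cascades pass a signal through kinases that phosphorylate each other in order. A MAP4K or a small GTPase activates a MAP3K, the MAP3K activates a MAP2K, and the MAP2K activates a MAPK, which phosphorylates transcription factors, other kinases and many further substrates. The best known cascades end in the ERK, JNK and p38 kinases and carry growth factor and stress signals.

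The measurement was the authors' inclusion difference. For each set of libraries, the inclusion level runs from 0 (exon always skipped) to 1 (exon always included), and the difference was read as the first set minus the second, the usual order of this kind of table. The labels do not say which set is WT and which is RBFOX2 KO, so directions are given between sets. Values per library could not be tied to clones, because those columns carry set numbers only. The columns were left out, so spread and read depth are not given. The total depth of an event needs no clone name, but was not read either. Every difference below therefore stands with the false discovery rate (FDR) of the authors' model and with no SD of its own. An event passed at an FDR under 0.05 with a difference of at least 0.1 in either direction.

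Exons that passed were found in MAP3K4 (2 exons), MAP3K3, MAP3K8, MAP3K15, MAP4K2 and MAPK8. For the 5 of these exons that lie in a reading frame, the sequence is shown because these letters are what the included form adds to the reading frame. Sequences are from GENCODE 29 transcripts, 5′ to 3′ on the coding strand, and positions are those of the deposited table, hg19 per the submitters' processing notes. Capitals mark GCATG in MAP3K4 and as the second run in MAP3K3, and the codons of a kinase motif in the others. These are the glycine-rich loop in MAP3K15, the metal-binding motif at the start of the activation segment as the first run in MAP3K3, and the end of the activation segment in MAP4K2. In the 91-nt exon of MAP3K4, the last base in capitals is the first base of a stop codon.
MAP3K4, 150-nt exon, chr6:161519310-161519459, plus strand: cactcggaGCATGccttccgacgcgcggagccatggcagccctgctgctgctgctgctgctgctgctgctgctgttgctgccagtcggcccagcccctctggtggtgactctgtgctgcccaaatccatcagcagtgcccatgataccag
MAP3K4, 91-nt exon, chr6:161529983-161530073, plus strand: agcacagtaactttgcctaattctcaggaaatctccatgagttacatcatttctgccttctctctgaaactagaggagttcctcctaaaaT
MAP3K3, 178-nt exon, chr17:61769602-61769779, plus strand: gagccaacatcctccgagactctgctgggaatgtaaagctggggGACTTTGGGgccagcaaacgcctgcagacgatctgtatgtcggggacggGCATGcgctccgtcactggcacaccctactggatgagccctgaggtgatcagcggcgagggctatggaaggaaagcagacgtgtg
MAP3K15, 134-nt exon, chrX:19416344-19416477, minus strand: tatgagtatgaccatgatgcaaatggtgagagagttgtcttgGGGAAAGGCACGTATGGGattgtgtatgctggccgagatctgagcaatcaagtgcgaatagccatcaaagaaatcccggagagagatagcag
MAP4K2, 132-nt exon, chr11:64568372-64568503, minus strand: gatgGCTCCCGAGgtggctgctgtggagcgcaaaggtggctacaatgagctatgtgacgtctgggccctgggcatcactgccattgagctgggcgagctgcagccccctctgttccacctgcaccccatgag

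Of the 101 events, 7 passed, or 6.93%, against 5.15% over the authors' deposited table, so the share for the whole group lay near the background. By exon, 7 of 94 passed, against 5.73% of all exons, and by gene 6 of 33, against 13.7% of all genes. The first set was higher in 4 of the 7 passing events (57.1%, exact Clopper-Pearson 95% interval 18.4% to 90.1%, for counting error alone) and the second set in 3. In the whole table, the first set was higher in 871 of the 1619 passing events (2.77% of all events) and the second set in 748 (2.38%). An unadjusted p-value under 0.05 was listed for 15 of the 101 events (14.9%) and for 3760 of the 31408 events. All 7 events under the FDR limit also had a difference of at least 0.1.

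The passing events were spread unevenly over the tiers of the cascade. Among the MAP3K genes, 5 of 15 events passed (33.3%), in 4 of 8 genes. In the MAP4K tier 1 of 19 events passed, and in the MAPK tier 1 of 23. None of the 16 MAP2K events and none of the 28 events of genes named after a MAP kinase passed, while the unadjusted p-value was under 0.05 in 3 and 1 of them. The median absolute difference was 0.132 for the MAP3K events, 0.045 for all member events and 0.048 for the whole authors' deposited table. These counts rest on few events, and the difference between tiers was not tested.

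**Figure D1:**
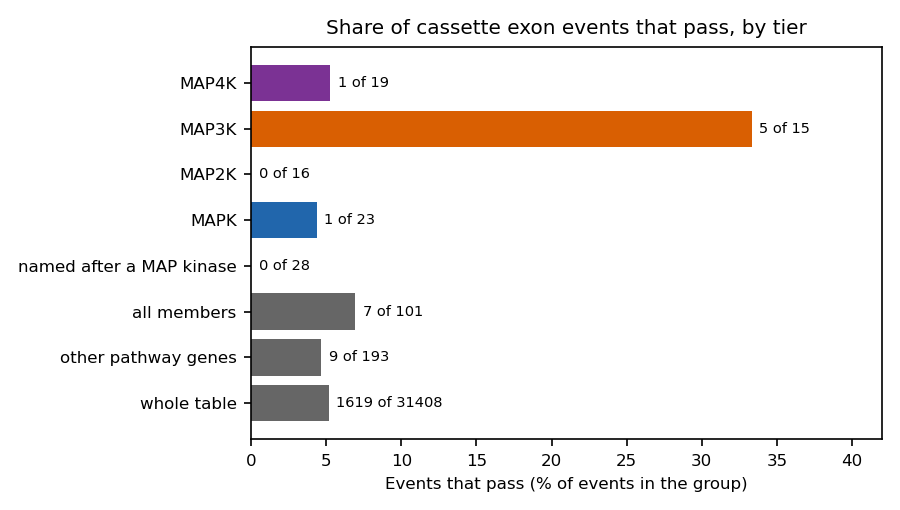
Bars give the percentage of cassette exon events that pass in each tier, in all members, in 65 other genes of the pathway and in the whole deposited table, with the counts written beside them. The MAP3K bar stands at 33.3% and the whole table at 5.15%.

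MAP3K4 (MEKK4), which activates the JNK and p38 cascades in response to stress, had 2 events and both passed, in opposite directions. The 150-nt exon (ENSG00000085511) was higher in the first set by 0.518 (FDR 2.04e-08, from the authors' deposited table), and no other of the 101 events had a lower FDR. It is exon 17 of transcript MAP3K4-203, fully coding, and supplies 50 of its 1604 codons, after codon 1170, with the frame and the stop kept when it is skipped. GCATG is at bases 9 to 13 of the exon, close to its 5′ end, followed by a run of repeated ctg triplets. The second exon, of 91 nt, was higher in the second set, at -0.148 (FDR 0.0358, from the authors' deposited table). GENCODE 29 places it only in a transcript annotated for nonsense-mediated decay, MAP3K4-215. In that transcript the reading frame runs through the exon and meets a stop codon that starts at its last base. The upstream intron of this exon has 91 nt, the same length as the exon itself, and the downstream intron 713 nt. Both MAP3K4 exons are known as skipped in other GENCODE transcripts.

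MAP3K3 (MEKK3), a kinase that can activate the ERK5, JNK and p38 cascades, had 1 passing exon of 3. Its 178-nt exon (ENSG00000198909) was higher in the first set by 0.198 (FDR 0.00159, from the authors' deposited table). The exon is number 16 in MAP3K3-201, begins after codon 522 of 657 and holds the metal-binding motif of the kinase domain at bases 45 to 53 and GCATG at bases 94 to 98. Its length is not divisible by 3. Removing it from MAP3K3-201 gives a new stop codon 29 nt after the new junction, beyond the last exon junction. No GENCODE 29 transcript was found with the skipped form. The other MAP3K3 exons did not pass. The 93-nt exon, a coding insertion of 31 codons near the amino terminus, was listed at 0.1 (FDR 1, from the authors' deposited table), and the 130-nt exon at -0.084.

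MAP3K15 (ASK3), a stress-activated kinase of the ASK family, had 1 passing exon of 3. Its 134-nt exon (ENSG00000180815) was higher in the second set, at -0.285 and FDR 0.013 per the authors' deposited table. This exon, number 15 in MAP3K15-201, begins after codon 644 of 1313 and holds the glycine-rich loop that binds ATP, at bases 43 to 60. Without it the frame changes and a stop follows 45 nt after the junction, 1743 nt before the last exon junction. The 98-nt exon of MAP3K15 had a difference of nearly the same size, -0.3, but a p-value of 1 in the authors' deposited table. The larger of these 2 differences was therefore the one without a call.

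MAP3K8 (TPL2, also called COT), which activates MEK1 and MEK2 downstream of inflammatory receptors, had a single event with the largest difference among the passing exons. For its 231-nt exon (ENSG00000107968; chromosome 10, 30726105 to 30726335), the difference was -0.9 (FDR 9.5e-06, from the authors' deposited table). The exon lies in the 5′ UTR in both matched coding transcripts, as exon 2 of MAP3K8-201, so the annotated protein of 467 codons is the same with and without it.

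MAP4K2, a kinase upstream of the JNK cascade, had 1 passing exon of 2. Its 132-nt exon (ENSG00000168067) was higher in the first set by 0.834 (FDR 0.00213, from the authors' deposited table). The exon is number 9 of MAP4K2-201 and holds 44 codons after codon 176 of 820. Skipping keeps the frame and the stop but takes out the end of the activation segment, at bases 5 to 13 of the exon. It sits between introns of 79 and 73 nt, and a GENCODE 29 transcript with the skipped form exists. The other MAP4K2 exon, of 69 nt, was listed at 0.075 with a p-value of 1 in the authors' deposited table.

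MAPK8 (JNK1), a kinase at the end of the JNK cascade that phosphorylates JUN, was the only gene of the MAPK tier with a passing event. A 69-nt exon of MAPK8 (ENSG00000107643; chromosome 10, 49533940 to 49534008) was higher in the first set by 0.48 (FDR 0.000691, from the authors' deposited table). In this event the upstream neighbour is a 194-nt exon, 17608 nt away. Paired with a 167-nt upstream exon, 19075 nt away, the same exon was listed at 0.188 (FDR 0.765, from the authors' deposited table). Both events had the same direction, and the call rests on 1 of them. The exon is in the 5′ UTR of 2 GENCODE 29 transcripts and its downstream intron has 75646 nt. That 194-nt exon, also in the 5′ UTR, had its own event at -0.042, which did not pass by the authors' deposited table.

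**Figure D2:**
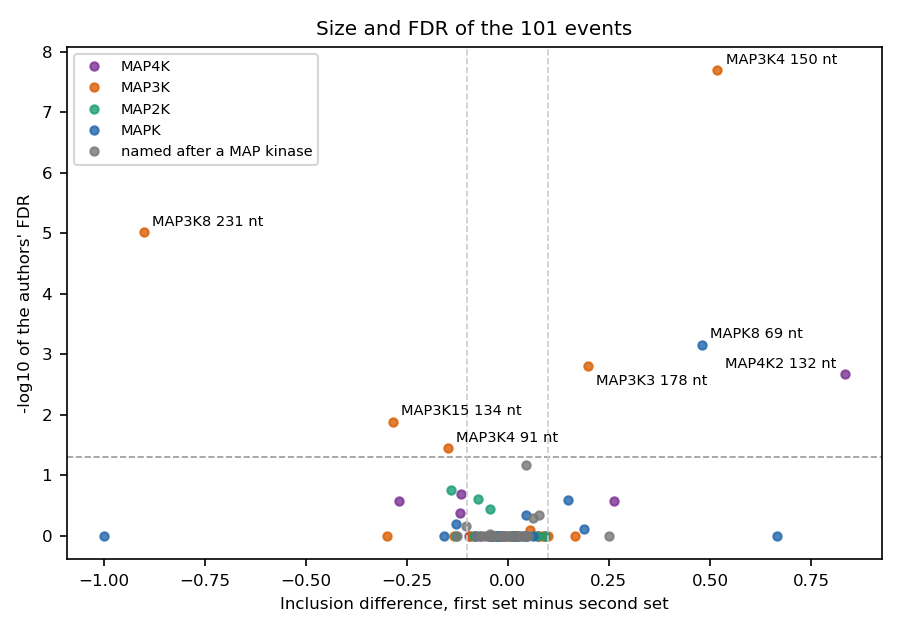
Each of the 101 points is an event, with the inclusion difference (first set minus second set) on the x axis and −log10 of the authors' FDR on the y axis; dashed lines mark the limits of 0.05 and 0.1. The 7 labelled events lie beyond both limits, with the MAP3K4 150-nt exon highest and the MAP3K8 231-nt exon farthest to the left among them.

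Differences of at least 0.1 without a call were found in every tier, and the largest lay in the JNK and ERK families. MAPK10 (JNK3), known mainly from the nervous system, had 1 event at -1, that is, full inclusion in the second set and full skipping in the first, and a p-value of 1 in the authors' deposited table. MAPK15 (ERK8) had 1 event, a 106-nt exon at 0.667, again with a p-value of 1 per the authors' deposited table. Among the 101 member events, 19 had a difference of at least 0.1 and did not pass, and 6 of these had a p-value of 1. Among the 31408 events of the whole table, the same counts were 8281 and 4394. In all, 36 of the 101 events (35.6%) and 51.4% of the whole table carried a p-value of 1. Whether few reads lie behind these values was not tested.

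The MAPK tier had 23 events in 9 genes, most of them small. MAPK3 (ERK1), the end kinase of the growth factor cascade, had 5 events between -0.026 and 0.044, and none had a p-value under 0.05 in the authors' deposited table. The 5 events of MAPK9 (JNK2) ranged from -0.159 to 0.046, and their lowest FDR was 0.453 by the authors' deposited table. The largest of these was a 93-nt exon in the 5′ UTR. MAPK12 (p38 gamma) had 4 events between -0.128 and 0.148. Its 72-nt coding exon, at 0.148 per the authors' deposited table, had the lowest p-value of the tier after MAPK8, 0.0259 (FDR 0.255). MAPK14 (p38 alpha) and MAPK7 (ERK5), with 1 event each, and MAPK6 (ERK3), with 2, had differences between -0.039 and 0.061 in the authors' deposited table. In this tier 10 of 21 matched exons were fully coding and 5 lay in the 5′ UTR.

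The MAP2K tier, the kinases that phosphorylate the MAPKs, had no passing event in 6 genes. MAP2K1 and MAP2K2 (MEK1 and MEK2, the activators of ERK) had 3 events each in the range from -0.084 to 0.017 in the authors' deposited table. MAP2K3, which activates p38, had -0.022 and 0.045, and MAP2K4, which activates JNK and p38, had 0.005 and 0.091 in the authors' deposited table. MAP2K5, the activator of ERK5, was listed at -0.128 for a 68-nt exon and 0.071 for a coding 30-nt exon in the authors' deposited table. MAP2K7 (MKK7), an activator of JNK, had 4 events, and 3 of them had an unadjusted p-value under 0.05. These were a 164-nt exon at -0.141 (p-value 0.0152), a 143-nt exon at -0.075 (0.0249) and a 48-nt exon at -0.045 (0.0414) in the authors' deposited table, all with the second set higher. Their FDR lay between 0.173 and 0.361, so none passed. The 164-nt and 143-nt exons share their 3′ end and differ by 21 nt at the 5′ end, so reads at the shared end are common to both.

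The MAP4K tier held the gene with the most events, MAP4K4 (HGK), a kinase linked to stress signalling and cell migration. Its 13 events on 10 exons ranged from -0.269 to 0.263, and none passed in the authors' deposited table. The 2 extremes belong to neighbouring coding exons. A 162-nt exon was listed at -0.269 (p-value 0.0271) when its downstream partner was the 231-nt exon, and the 231-nt exon at 0.263 (p-value 0.0277) when its upstream partner was that 162-nt exon, in the authors' deposited table. The 2 events thus share the 2834-nt intron between the exons. With other partners, the 162-nt exon had -0.116 (p-value 0.0187) and the 231-nt exon -0.047 (p-value 0.507) in the authors' deposited table. The lowest FDR of MAP4K4 was 0.201. Of the 16 exons of the tier, 14 matched GENCODE 29 and each of these was fully coding. MAP4K3 and MAP4K5 had 2 events each, between -0.097 and 0.093 in the authors' deposited table.

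The remaining MAP3K genes had no passing event. MAP3K5 (ASK1) and MAP3K6 (ASK2), the partners of MAP3K15 in the ASK family, had 1 event each, at 0.054 and 0 in the authors' deposited table. The mixed-lineage kinases MAP3K9 (MLK1) and MAP3K10 (MLK2), activators of JNK, had 2 events each, at -0.132, -0.093, 0.077 and 0.087 in the authors' deposited table. The first 2 belong to MAP3K9 and are coding exons of 69 and 42 nt that keep the frame.

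Genes named after a MAP kinase are not all part of the cascade, and none had a passing event. MAPKAP1 (SIN1) is a subunit of the mTORC2 complex, and its 8 events lay between -0.067 and 0.061 in the authors' deposited table. MAPKAPK5, a kinase activated by MAP kinases, had 11 events between -0.103 and 0.25; the highest had a p-value of 1 in the authors' deposited table. The same 109-nt exon of MAPKAPK5 was listed at 0.25, 0.032 and -0.103 with different partners in the authors' deposited table. MAPKAPK3, a kinase downstream of p38, had 2 events, at -0.02 and 0.028, and the 3 events of the JNK scaffold MAPK8IP3 (JIP3) ranged from -0.125 to 0.049 in the authors' deposited table. MAPK1IP1L had 2 events, and its 22-nt exon had the lowest FDR of the genes in this class, 0.067, at a difference of 0.044 per the authors' deposited table. MAPKAPK5-AS1, a noncoding RNA, had -0.058 and -0.004 in the authors' deposited table.

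**Figure D3:**
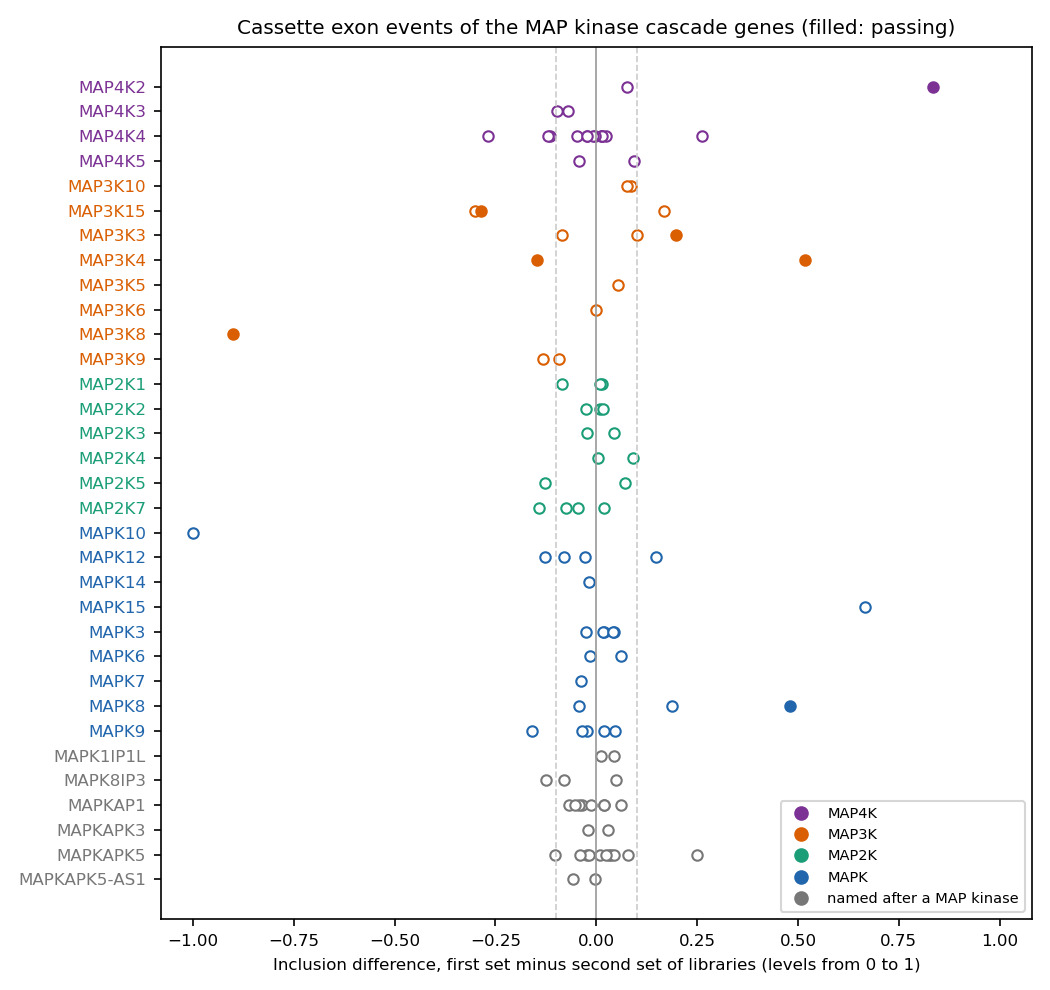
Inclusion difference (first set minus second set, x axis) of every event, 1 row per gene, coloured by tier; filled points pass, open points do not, and dashed lines mark differences of 0.1. Most open points lie between the dashed lines, and 5 of the 7 filled points are in MAP3K rows.

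Values of 1 exon differed with its flanking exons. Several events were listed for 6 of the 94 exons, and in 3 of these the differences had both signs. A further 5 pairs of exons, in MAP2K7, MAPK12, MAPK3 and MAPKAP1, share 1 end and so share junction reads. Both exons had the same sign in each of these pairs. In MAPK3, for example, the 132-nt and 149-nt exons, which differ by 17 nt, were listed at 0.019 and 0.044 in the authors' deposited table.

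In structure, the member exons are set beside the whole table. Their median length was 108.5 nt (117 nt over all exons), with a range from 12 nt (MAPK8IP3) to 328 nt (MAPKAP1). In 45 of 94 the length was divisible by 3 (47.9%; 40.7% over all exons), and 9 were at most 51 nt long (9.57%; 7.20% over all exons). By gene identifier, exon length and flanking intron lengths, 86 of 94 exons matched a GENCODE 29 transcript. Of these, 64 were fully coding in a protein-coding transcript (74.4%; 66.1% over all matched exons), 5 partly coding, 7 in the 5′ UTR and 10 in no protein-coding transcript. A transcript with the skipped form was annotated for 48 of the 86 (55.8%; 52.3% over all).

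Skipping was annotated for 5 of the 7 passing exons, all but those of MAP3K3 and MAP3K15. That is 71.4%, against 78.8% of all matched passing exons of the table. Over all member exons, 63 could be removed from a complete reading frame: 32 kept frame and stop, 24 gave a stop more than 50 nt before the last exon junction, and 7 gave another stop. A further 3 exons, in MAP3K4, MAPK9 and MAPKAPK5, hold the stop codon of the transcript they belong to, or its first base. A stop that far before the last junction is the usual mark of transcripts degraded by nonsense-mediated decay, which the table does not measure.

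The element bound by RBFOX proteins, GCATG, was searched on the transcript strand of the exons alone. It was present in 12 of the 86 matched member exons (14.0%) and in 2873 of all 24785 matched exons of the table (11.6%). Of the 12, those of MAP3K3 and MAP3K4 (150 nt) passed. With or without the element, 7 of the 86 matched member exons and 1429 of the 24785 matched exons of the table passed. How many of the 2873 passed was not counted, so a link between the element and passing was not tested. The flanking introns were not searched, since a genome of that build was not used here.

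**Figure D4:**
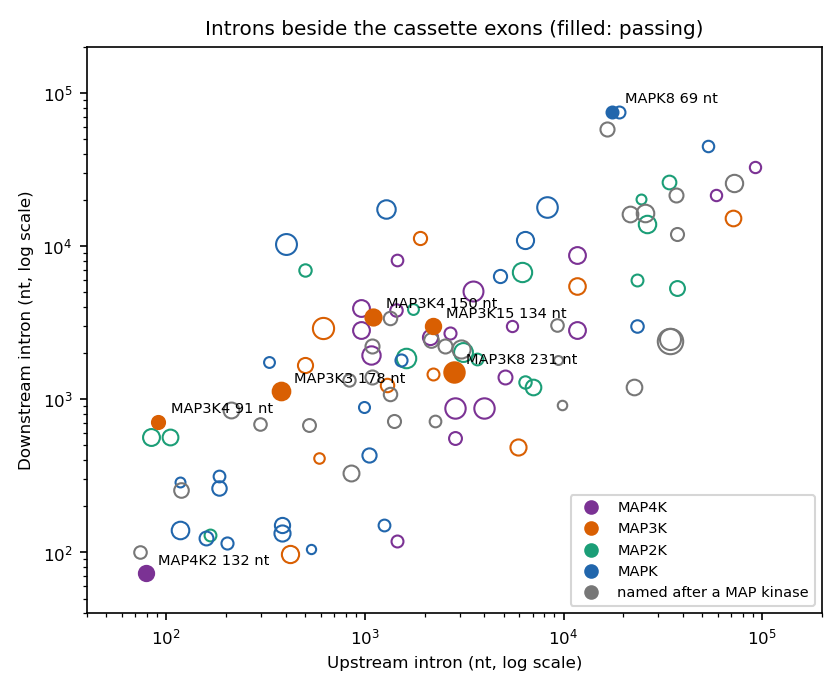
Lengths of the upstream (x axis) and downstream (y axis) introns of each event in nt, on log scales; point size grows with exon length, colours give the tier and filled points pass. Passing exons run from MAP4K2, between introns of 79 and 73 nt, to MAPK8, between introns of 17608 and 75646 nt.

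The passing exons lay beside both short and long introns. Over the member exons the median upstream intron had 2016 nt and the median downstream intron 1843 nt, against 2152 and 2016 nt over all exons. Both introns were over 10000 nt for 14 of the 94 member exons and under 300 nt for 9, and each of these classes held 1 passing exon. Over all 27483 exons, the same classes held 1907 and 1278 exons, of which 121 and 55 passed. The difference in these shares was not tested.

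Other genes of these pathways were read from a list of 100 regulators, adaptors, phosphatases and targets, of which 65 had events. Of their 193 events, 9 passed (4.66%, against 5.15% of the table), 5 with the first set higher and 4 with the second. Of these 9 exons, 8 had a length divisible by 3 (46.0% of all passing exons of the table), 4 had at most 51 nt (11.1% of all passing exons) and all 9 were fully coding (58.2% of all matched passing exons). SPAG9 (JIP4), a scaffold of the JNK cascade, had a 42-nt exon at 0.335 (FDR 0.000432, from the authors' deposited table). TNIK, a relative of MAP4K4, had a 24-nt exon at 0.308 (FDR 0.00113) in the authors' deposited table. For CREB1, a transcription factor downstream of several cascades, a 42-nt exon was listed at 0.262 (FDR 7.33e-09) in the authors' deposited table. The phosphatase CDC25B had 0.256 for a 123-nt exon, and the adaptor SHC1 0.11 for a 54-nt exon in the authors' deposited table. Higher in the second set were a 90-nt exon of the adaptor GAB1 (-0.386), a 24-nt exon of the actin crosslinker FLNA (-0.25), a 169-nt exon of the ERK pathway inhibitor SPRED2 (-0.163) and a 123-nt exon of the ERK-activated kinase MKNK1 (-0.127) in the authors' deposited table.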

How the data were processed

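RNA-seq of 4 HEK293T clones was analysed, 2 of genotype WT and 2 of genotype RBFOX2 KO. Libraries were stranded and depleted of ribosomal RNA, per the labels' protocols. Reads were mapped with STAR 2.7.3a to hg19, per the submitters' processing notes. The skipped-exon table has the columns of rMATS, a program that tests exon inclusion from junction reads, per the file headers; its version and annotation are not given in the sources used here. Per the file headers, the authors deposited a p-value and an FDR for each event. The inclusion difference, a score between -1 and 1, was also computed and deposited by the authors. The 6 columns with values per library match no sample label and were not used, so read depth, spread and refitted tests are not given.

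From the table, events were called (FDR under 0.05, difference at least 0.1), collapsed to exons by position and counted. An exon passed if any of its events did. Exons were matched to GENCODE 29 (GRCh38) by structure; 0 of the member exons have the same position there, and no coordinate was converted. Where several transcripts matched, a complete protein-coding one was read. The rule for named exons took every passing member exon, any at FDR under 0.05 with a smaller difference (none was found), the lowest p-value of each tier and every member gene by its number of events; the further exons and ranges given were picked with their values in view. Members, lists and tests were chosen with earlier results of these data known. Calling was tested on simulated data. Alternatives were other FDR limits, Bonferroni correction, other minimum differences, members without the genes named after a MAP kinase, and correction for events per exon. The software was Python 3.11.15 with numpy 2.4.6, pandas 2.3.3, Biopython 1.88 (translation), matplotlib 3.10.9 and scipy 1.17.1.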

Additional observations from a re-analysis of the deposited data

How the results depend on the processing

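Under a Bonferroni correction over the table, 2 member events on 2 exons in 2 genes passed, the MAP3K4 150-nt and the MAP3K8 231-nt exon; the stricter limit gives fewer calls by construction. Across the other alternatives 5 to 7 events passed. An FDR under 0.01 ended the calls of the MAP3K4 91-nt and MAP3K15 exons, and a minimum difference of 0.2 those of the MAP3K4 91-nt and MAP3K3 exons. With 5 calls at an FDR under 0.01, the first set was higher in 80.0%. The share over the whole table at that limit was not computed. Leaving out the genes named after a MAP kinase left 7 calls. None of their 28 events had passed, so this count could not change.

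No paired analysis was possible because values per library are named by set alone and could not be tied to clones, although clone titles share numbers between genotypes. Leaving out each clone was not run, since values per library were not used, so how far 1 clone decides a call is unknown. GCATG in introns, at any window, was not run for lack of a genome of the table's build.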
